A study of Mus musculus with 3 samples.

Results

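The 41 genes described here encode enzymes, carriers and coactivators of fatty acid oxidation and fatty acid synthesis. They were taken by name, matched through the GENCODE M21 annotation to 1 gene each in all 3 libraries, and make up 41 of the 55536 annotated genes of the deposited tables; their measured values were not used in the rule. The series holds 3 libraries of polyadenylated RNA from activated regulatory T cells, the CD4+ T cells that restrain other immune cells. All 3 came from 1 biosample of primary cells of a male mouse, 9 weeks old, of the strain Foxp3GFP-DTRCD4CreERT2R26tdTomato, are numbered technical replicates 1 to 3, and had their RNA sheared. The strain name lists a Foxp3 reporter with a diphtheria toxin receptor, a CD4 CreERT2 and a tdTomato reporter at R26; the labels name no inducing agent, no tissue beyond the whole organism, and no untreated or resting cells. There is therefore 1 group and no contrast between conditions, and every SD and p-value below measures the spread between technical libraries of 1 sample, not between animals.

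Fatty acids enter oxidation after a synthetase joins them to coenzyme A, after which the carnitine shuttle carries the acyl chain across the inner mitochondrial membrane. Each turn of beta-oxidation then runs through a dehydrogenase, a hydratase, a second dehydrogenase and a thiolase, with electrons passed through the electron transfer flavoprotein to the respiratory chain. Synthesis runs in the cytosol from citrate through acetyl-CoA and malonyl-CoA to palmitate, which elongases and desaturases then lengthen and unsaturate. Malonyl-CoA also inhibits the carnitine palmitoyltransferase of the outer mitochondrial membrane, which links the routes. Regulatory T cells are known for their use of oxidative metabolism.

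The genes of beta-oxidation were present almost as a complete set, while those of synthesis and desaturation ranged from highly expressed genes through a few of middling level to isoenzymes close to the lower limit. Levels are given in TPM, the deposited unit, in which reads are scaled to transcript length and to a fixed total per library, and a gene is called detected at 1 TPM or more in every library. Of the 41 genes, 35 were detected (85.4%), against 47.3% of 22028 protein-coding genes. Of the genes detected, 85.7% averaged at least 10 TPM and 28.6% at least 100 TPM, against 71.8% and 17.1% of the 10425 protein-coding genes detected. The median over the 41 genes was 45.6 ± 0.951 TPM (SD over 3 libraries), against 26.1 TPM over detected protein-coding genes. Cd36, Cpt1b, Ppargc1a, Acacb and Fads2 stayed under 1 TPM in every library, and Scd1 crossed that line only in replicate 3.

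**Figure D1:**
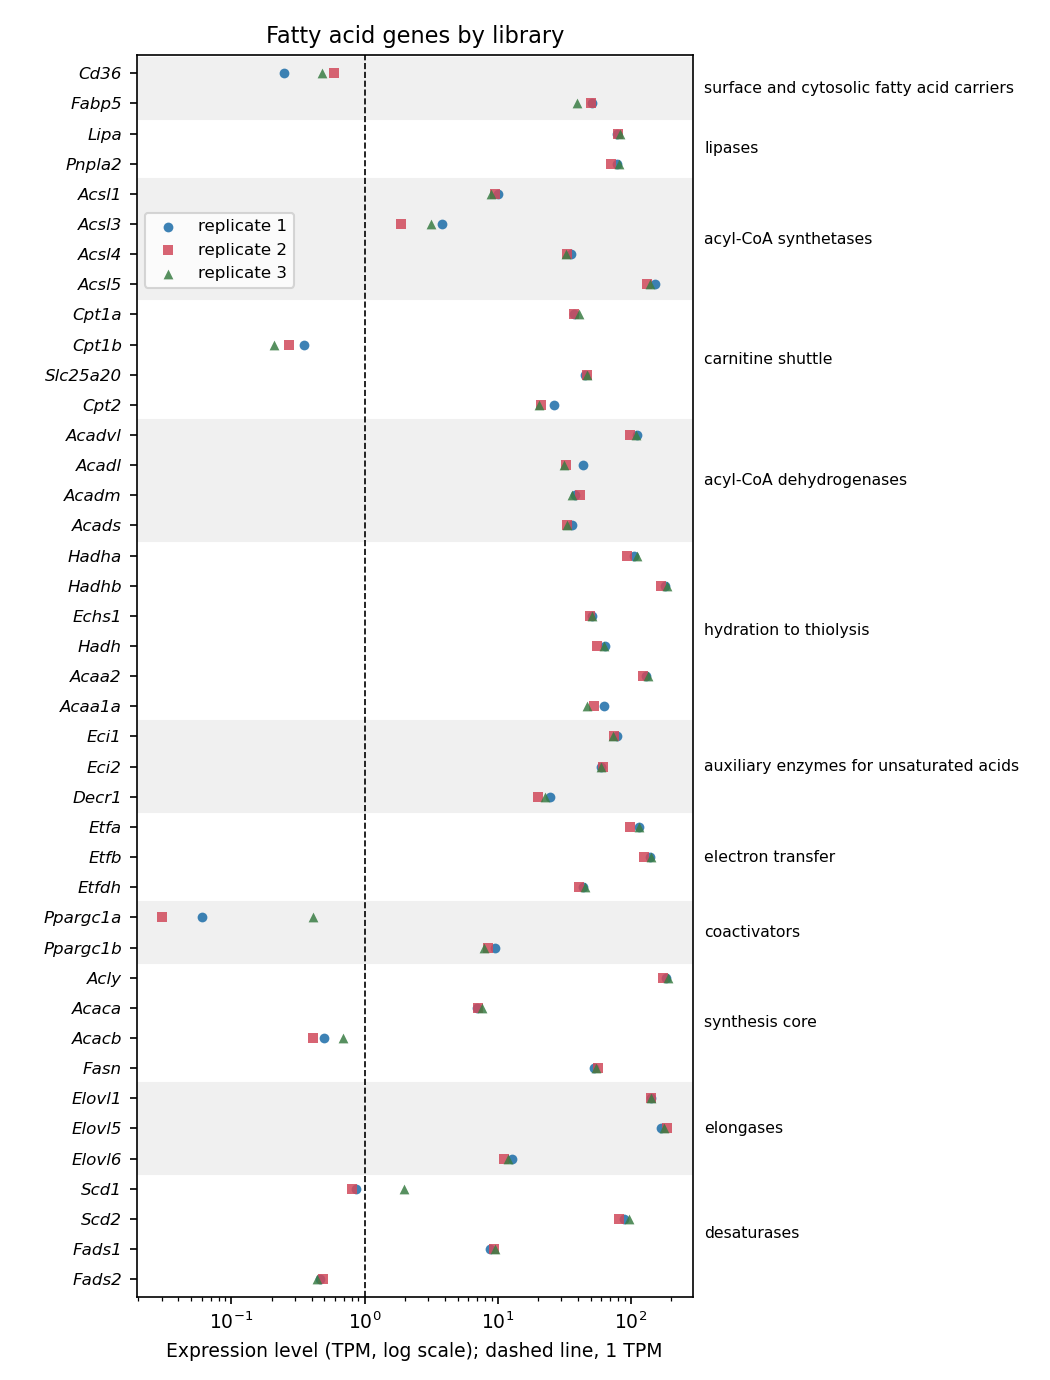
TPM of each of the 41 genes in replicates 1, 2 and 3 on a log axis, ordered by role, with a dashed line at 1 TPM. The 3 points of most genes lie close together, and 5 genes lie left of the line in all 3 libraries.

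Among the oxidation genes, 2 lie head to head. Hadha and Hadhb encode the alpha and beta subunits of the mitochondrial trifunctional protein, which carries out the last 3 steps of each turn on long chains. On chromosome 5 (mm10), Hadha (ENSMUSG00000025745.12, 30118304 to 30155162, minus strand) and Hadhb (ENSMUSG00000059447.13, 30155248 to 30184593, plus strand) start 85 bases apart, so that 1 stretch lies upstream of both. It is shown because it is the only such pair within 1 kb among the 41 genes. The plus strand of GRCm38.p6, 30155163 to 30155247, read from RefSeq promoter sequence, follows, with matches to the GC box letters GGGCGG in capitals.
Hadha to Hadhb: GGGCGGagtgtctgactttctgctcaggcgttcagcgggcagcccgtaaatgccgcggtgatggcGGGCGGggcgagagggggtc
Its GC content was 69.4%, and it held 2 GC boxes. Among the 33 genes with a RefSeq promoter, 20 held this motif on either strand in the 250 bases before their start, including 12 of 17 oxidation genes and 3 of 8 synthesis and desaturation genes; it occurred in 35.4% of 27025 genes and in 64.2% of detected protein-coding genes with a promoter.

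Hadhb was at 179, 169 and 186 TPM in replicates 1, 2 and 3, the highest of the oxidation list. Hadha was at 106, 93.3 and 112 TPM. Both were lowest in replicate 2 and highest in replicate 3, and Hadhb exceeded Hadha in every library, by 1.69, 1.82 and 1.67-fold. That order depended on the deposited table. A second table of whole-number counts, made on GENCODE M4 with a counting method not given in the sources used here, held 186, 182 and 181 counts for Hadhb, 4.03% of its estimated counts. Per effective length, with the lengths of the first table, Hadhb stood at 0.110 of Hadha there. Of all 50-base windows of the Hadhb transcripts, 19.7% also occur in transcripts of other genes, 18.1% in Gm13910 on the same strand; the part of shared sequence in the low second count was not tested.

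Entry into the cells and release from stores had few carriers but both lipases. Cd36, a surface fatty acid carrier, had 11, 21 and 15 estimated counts, equal to 0.250, 0.590 and 0.480 TPM. Fabp5, a cytosolic fatty acid binding protein, was at 50.7, 49.8 and 39.7 TPM, with replicate 3 the lowest. Lipa, the lysosomal acid lipase, was at 78.2, 79.4 and 83.0 TPM. Pnpla2, the triglyceride lipase of lipid droplets, was at 78.8, 71.2 and 80.9 TPM. The ranges of the lipases overlapped, and both lay above the median of the 41 genes in every library.

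Among the acyl-CoA synthetases, Acsl5 was far above the other 3. Acsl5 (chromosome 19, 55251938 to 55297720) was at 151, 133 and 139.6 TPM, and Acsl4, which prefers arachidonate, at 35.2, 33.4 and 32.5 TPM. Acsl1, the main form of fat and heart, was at 10.1, 9.49 and 8.89 TPM, and Acsl3 at 3.79, 1.89 and 3.15 TPM. The order Acsl5, Acsl4, Acsl1, Acsl3 held in each library. Acsl5 exceeded Acsl1 14.9-fold (log2 ratio 3.89 ± 0.08, SD over 3 libraries) and Acsl4 exceeded it 3.55-fold (1.83 ± 0.04). Acsl3 stood at 0.298 of Acsl1 (log2 ratio -1.75 ± 0.51), and its TPM varied more than its CPM (counts scaled to library size alone): the highest library exceeded the lowest 2.01-fold in TPM and 1.52-fold in CPM, with an effective length that varied 1.37-fold.

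In the carnitine shuttle the liver form of the outer enzyme was expressed and the muscle form was close to absent. Cpt1a (ENSMUSG00000024900.5, chromosome 19, 3322334 to 3385733, plus strand), the rate-limiting transferase in most tissues, was at 37.2, 37.7 and 40.6 TPM. Cpt1b (chromosome 15, 89416405 to 89425863, minus strand) was at 0.350, 0.270 and 0.210 TPM, from 13, 7 and 2 estimated counts. The level of Cpt1a was 106 and 139.7 times that of Cpt1b in replicates 1 and 2. In replicate 3 the ratio was 193, with a 95% exact Poisson interval of 53.5 to 1597 for the 2 counts, which covers counting error only. The effective length assigned to Cpt1b varied 3.60-fold between libraries, and its spread was 5.78-fold in CPM against 1.67-fold in TPM, so these ratios depend on the assigned length. The mean ratio was 69.5-fold in the second table, but its counts were divided by the same assigned lengths. There Cpt1b had 10, 7 and 2 counts and Cpt1a had 882, 960 and 870. Of the 50-base windows of Cpt1b, 78.6% are shared with Gm44502, listed at 0 TPM, so even these few counts are uncertain. Slc25a20, the carnitine and acylcarnitine translocase, was at 44.9, 46.7 and 46.7 TPM, and Cpt2, the inner transferase, at 26.3, 21.3 and 20.3 TPM. The higher Cpt2 value of replicate 1 was not seen in CPM, at 30, 28.5 and 28.8; the effective length assigned to Cpt2 varied 1.25-fold.

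All 4 acyl-CoA dehydrogenases, which act on chains of decreasing length, were expressed, with the very-long-chain enzyme the highest. Acadvl was at 111, 98.2 and 109.9 TPM, Acadm (medium chain) at 37.9, 41.5 and 36 TPM, and Acads (short chain) at 36.3, 33.0 and 33.3 TPM. Acadl (long chain) was at 43.5, 32.6 and 31.5 TPM. Below Acadvl, Acadl was the highest in replicate 1 and the lowest in replicates 2 and 3, while Acadm was above Acads in every library. Exons of Dvl2 on the opposite strand overlap 42.9% of the exon bases of Acadvl; Dvl2 was at 17.7 TPM, and the strand setting of the authors' counting is not given in the sources used here, so reads of the overlap cannot be assigned with certainty.

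The remaining steps of the spiral were also covered. Acaa2, the mitochondrial thiolase, was at 129, 124 and 134 TPM, Hadh, the short-chain hydroxyacyl-CoA dehydrogenase, at 63.6, 55.9 and 62.4 TPM, and Echs1, the short-chain hydratase, at 50.7, 49.7 and 51.4 TPM. Acaa1a, a peroxisomal thiolase, was at 62.4, 52.7 and 46.9 TPM, with replicate 1 above replicates 2 and 3. Acaa1a shares 12.4% of its windows with its paralog Acaa1b and overlaps Myd88 on the opposite strand, which was at 86.5 TPM. Eci1, Eci2 and Decr1, which prepare the double bonds of unsaturated acids for the spiral, had means of 75.2 ± 2.43, 60.7 ± 1.29 and 22.5 ± 2.37 TPM. Decr1 and Cpt2 were the lowest detected genes of the oxidation list, Decr1 in replicates 1 and 2 and Cpt2 in replicate 3.

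The electron transfer flavoprotein was abundant and its subunits were near one another. Etfa was at 115, 97.9 and 116 TPM and Etfb at 139, 125 and 142 TPM, both lowest in replicate 2. Etfb exceeded Etfa 1.23-fold, with a log2 ratio of 0.3 ± 0.05. Etfdh, the dehydrogenase that hands these electrons to ubiquinone, was at 43.4, 40.9 and 45.2 TPM. Of the windows of Etfb, 44.8% are shared with other genes, 43.8% with Gm45233, which was listed at 0 TPM. Of the coactivators that promote mitochondrial and oxidative genes, Ppargc1b was at 9.51, 8.48 and 7.85 TPM. Ppargc1a had 2, 1 and 5 estimated counts, too few for a ratio between them to be read.

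On the synthesis side, Acly and Fasn were high and the acetyl-CoA carboxylases were low. Acly (chromosome 11, 100476353 to 100528000), which splits citrate into cytosolic acetyl-CoA, was at 185, 174 and 189 TPM, the highest mean of the 41 genes. Fasn (chromosome 11, 120805846 to 120824547), the fatty acid synthase, was at 52.4, 56.2 and 54.9 TPM. Acaca, the cytosolic carboxylase that makes the malonyl-CoA for synthesis, was at 6.96, 7.13 and 7.59 TPM. Acacb, the mitochondrial-surface carboxylase whose malonyl-CoA restrains the outer carnitine transferase, was at 0.50, 0.41 and 0.69 TPM, from 51, 30 and 42 estimated counts. Acaca exceeded Acacb 13.9-fold (log2 ratio 3.79 ± 0.33), and 4.31-fold in the second table. The effective length assigned to Acacb varied 1.49-fold between libraries, so these ratios depend on it. Of the Acaca windows, 30.4% are shared, 29.2% with Gm5182.

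All 3 elongases were detected, and 2 of them were far above the third. Elovl5, which lengthens polyunsaturated chains, was at 168, 187 and 178 TPM, and Elovl1, which makes very long saturated and monounsaturated chains, at 142, 141 and 141 TPM. Elovl6, which lengthens palmitate, was at 12.8, 11.1 and 11.9 TPM. Elovl5 exceeded Elovl6 14.9-fold and Elovl1 exceeded it 11.9-fold (24-fold in the second table), with no overlap in any library. The second table held 42.5% of the estimated counts of Elovl1 and 21.1% of those of Elovl6.

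Of the delta-9 desaturases, which place the first double bond in stearate and palmitate, Scd2 was expressed and Scd1 was near the limit. Scd2 (ENSMUSG00000025203.6, chromosome 19, 44293674 to 44306864, plus strand) was at 89.4, 82.1 and 96.4 TPM. Scd1 (ENSMUSG00000037071.3, chromosome 19, 44394455 to 44407879, minus strand) was at 0.860, 0.810 and 1.97 TPM, from 37, 34 and 41 estimated counts. Scd2 therefore exceeded Scd1 104, 101 and 48.9-fold in replicates 1, 2 and 3. The higher Scd1 value of replicate 3 was smaller in counts: the spread between libraries was 2.43-fold in TPM and 1.38-fold in CPM, and its effective length varied 1.87-fold. The coding sequences of these genes are 90.4% identical over 1068 aligned bases, with an identical run of 147 bases, so 2 windows of 60 coding bases are shown, the first where they cannot be told apart and the second where they differ most, with differing bases in capitals. Positions count from the first base of the start codon in GENCODE M21 transcripts Scd1-201 and Scd2-201.
Scd1 coding bases 442 to 501: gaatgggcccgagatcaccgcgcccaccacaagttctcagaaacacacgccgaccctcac
Scd2 coding bases 451 to 510: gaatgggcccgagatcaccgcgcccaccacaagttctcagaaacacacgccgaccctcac
Scd1 coding bases 79 to 138: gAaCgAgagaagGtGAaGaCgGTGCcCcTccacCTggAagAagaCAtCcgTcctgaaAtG
Scd2 coding bases 88 to 147: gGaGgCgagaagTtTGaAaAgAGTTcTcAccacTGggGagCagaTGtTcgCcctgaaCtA
The second pair differs at 24 of 60 positions. Over whole transcripts only 4.56% of the Scd1 windows and 3.97% of the Scd2 windows are shared with another gene. In the second table Scd1 had 6, 7 and 10 counts and Scd2 had 811, 784 and 862, which is 13.2% of its estimated counts. Scd2 exceeded Scd1 52.3-fold there, per the same effective lengths as in the first table.

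The front-end desaturases showed the same kind of split. Fads1, the delta-5 desaturase, was at 8.69, 9.37 and 9.61 TPM. Fads2, the delta-6 desaturase that acts before it in the same pathway, was at 0.460, 0.490 and 0.440 TPM, from 14, 12 and 16 estimated counts. Fads2 stood at 0.0502 of Fads1, with a log2 ratio of -4.32 ± 0.12, and no library had the genes near each other. The effective length assigned to Fads2 varied 1.75-fold between libraries, and its spread was 1.53-fold in CPM against 1.11-fold in TPM. The ratio and its small SD therefore depend on the assigned length and on few counts.

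**Figure D2:**
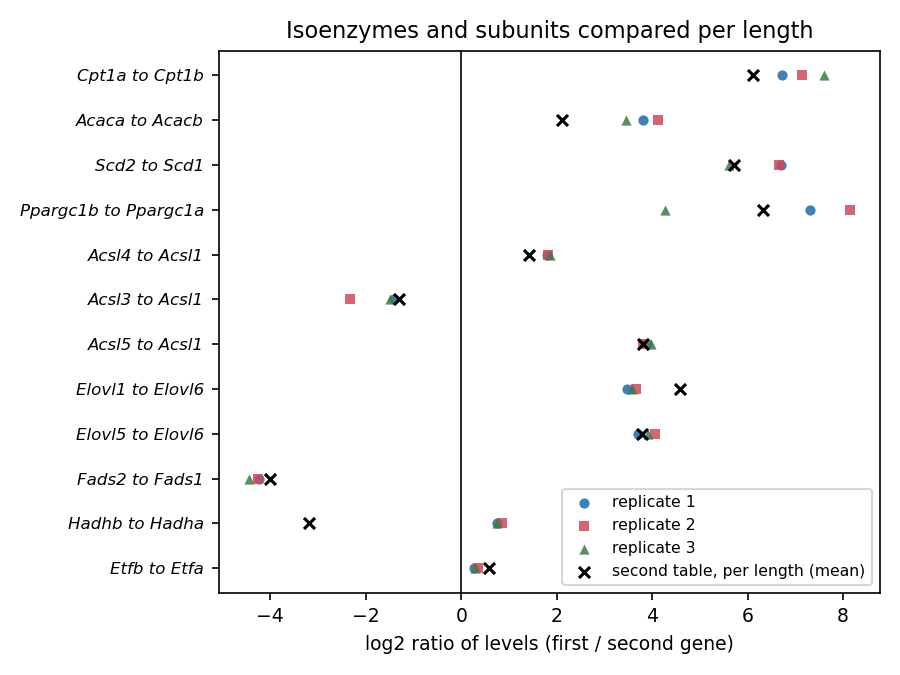
log2 ratio of TPM between paired isoenzymes or subunits in each library, with the mean ratio from the second table as a cross. The first gene of the pair, in an order set with earlier results known, is higher in 10 of 12 pairs. The cross for Hadhb to Hadha falls on the other side of 0, at -3.18. The Ppargc1b to Ppargc1a pair is drawn, but Ppargc1a had too few counts for its ratio to be read.

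Over 12 such pairs, the first gene was higher in 10 by TPM and in 9 by the second table. Which gene comes first was set with earlier results of these data known, so these counts describe that order only. They include Ppargc1b to Ppargc1a, where Ppargc1a had too few counts for the ratio to be read. In the plot of the 12 ratios the pairs with Ppargc1a, Scd1 and Acsl3 scatter most between libraries, with an SD of 2.04, 0.62 and 0.51 on the log2 scale. Of the other pairs, 4 had their coding sequences aligned: the identity was 64.8% for Acsl1 and Acsl5, 67.4% for Cpt1a and Cpt1b, 72.2% for Acaca and Acacb, and 67.8% for Fads1 and Fads2, with no identical run over 29 bases in these 4.

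Oxidation was then compared with synthesis, elongation and desaturation. The oxidation list has 20 genes, from the carnitine shuttle to the electron transfer flavoprotein, and the other list has 11. Of the oxidation genes 19 of 20 were detected, all 19 with means between 10 and 200 TPM. Of the synthesis and desaturation genes 8 of 11 were detected and 6 averaged at least 10 TPM. The list medians were 51.9 ± 3.14 TPM for oxidation and 11.9 ± 0.873 TPM for synthesis and desaturation. On the log2(TPM + 0.1) scale, oxidation was above by 2.09, 2.19 and 2.04 in replicates 1, 2 and 3, with a mean of 2.11 ± 0.08 (SD, n = 3).

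The size and sign of that gap depended on whether the genes close to the lower limit were kept. With only detected genes in both lists, the median was 54.7 ± 4.59 TPM for 19 oxidation genes. It was 71.9 ± 3.36 TPM for 8 synthesis and desaturation genes, and the gap turned to -0.35 ± 0.15. This filter drops genes by the values compared, and drops more of the shorter list, so it cannot show which list is higher. Acaca, Fads1 and Elovl6 were detected, yet had means below that of Decr1, the lowest detected oxidation gene at 22.5 TPM. The lists differed in spread rather than in their upper range: the quartiles of the oxidation genes were 37.8 and 104 TPM, an interquartile range of 1.46 on the log2 scale, against 4.22 and 115 TPM and a range of 5.18 for synthesis and desaturation. Summed over the list, the 20 oxidation genes took 1388, 1277 and 1369 TPM and the 11 synthesis and desaturation genes 667, 669 and 692 TPM. These sums also depend on the number of genes in each list. No p-value is given for these differences, since the genes were chosen and are not replicates.

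**Figure D3:**
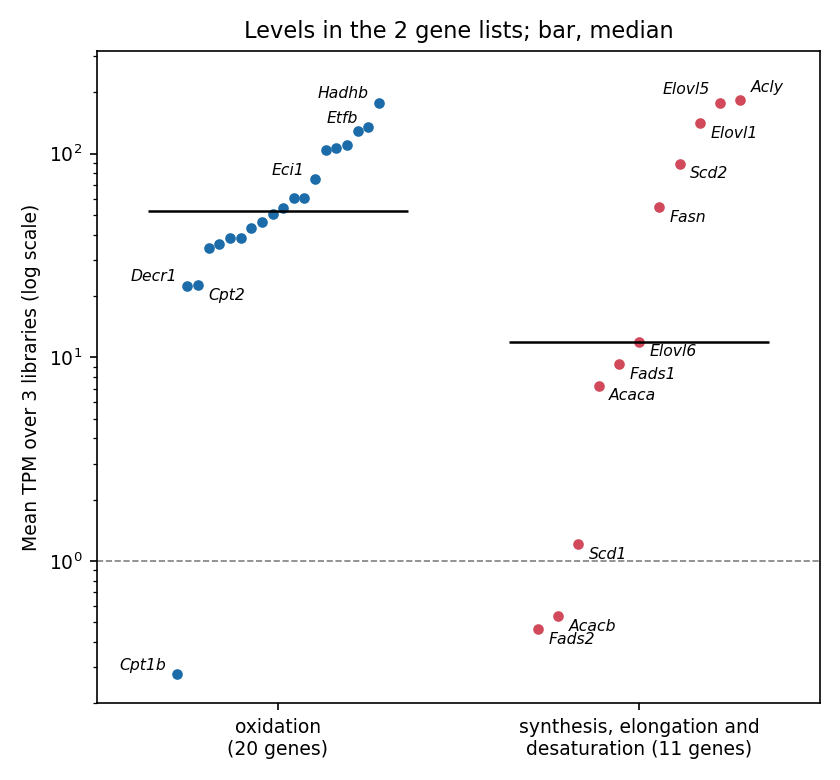
Mean TPM over 3 libraries of the 20 oxidation genes and the 11 synthesis, elongation and desaturation genes on a log axis, with the median of each list as a bar. Oxidation genes other than Cpt1b form a compact column from 22.5 to 178 TPM, while the other list runs from 0.463 to 183 TPM with its median at Elovl6.

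Differences between the libraries were small in this set. Each gene's estimated counts were tested against library totals with Pearson's chi-square test, for the 14641 genes whose counts summed to at least 30, and called at a Benjamini-Hochberg adjusted p of 0.05. Of 39 genes of the set tested, 18 were called (46.2%), near the 44.9% of all genes tested; among those averaging at least 100 counts, 17 of 34 were called, against 55.4%. The median ratio of the highest to the lowest library in CPM was 1.09 for the 34 genes and 1.15 for all genes averaging at least 100 counts. Those genes had a lower median level, 31.1 against 54.5 TPM, so the sets were not matched in depth. None of the 39 was called once the typical spread between these libraries, edgeR's common coefficient of variation of 0.115, was added to counting noise, against 2.72% of all genes. None had an unadjusted p of 0.05 or less. That spread was estimated from the same 3 libraries and takes in the differences tested, so this cannot show that the genes did not differ. With counting noise alone and without replicate 2, 9 of 38 tested were called, against 27.7% of all genes. Without replicate 1 the count was 12 and without replicate 3 it was 15, against 30.3% and 34.0%. The plot of ratio against count shows the set within the cloud of other genes.

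**Figure D4:**
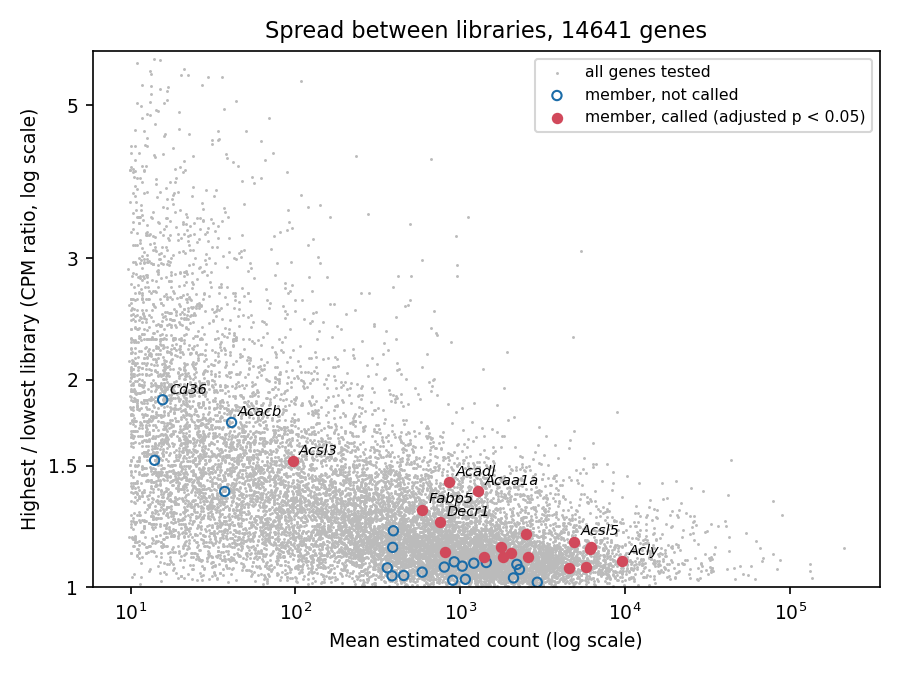
Ratio of the highest to the lowest library in CPM against the mean estimated count, both on log axes, for all genes tested (grey), with genes of the set that were called filled and those not called open. Of 14641 genes, 166 lie above the top of the axis at a ratio of 6, none of them from the set.

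The set held 5 called genes with a ratio of 1.2 or more, each described with its library values. Acadl differed most among genes at 10 TPM or more, at 51.7, 38.6 and 36.3 CPM, a ratio of 1.42 (adjusted p = 9.37e-14, chi-square test). Acaa1a was at 74.6, 61.0 and 54.0 CPM, a ratio of 1.38 (adjusted p = 2.13e-14, chi-square test). Both were highest in replicate 1 and lowest in replicate 3. Fabp5 was at 31.1, 31.6 and 24.4 CPM, a ratio of 1.30 (adjusted p = 9.70e-05, chi-square test), with replicate 3 alone low. Decr1 was at 41.4, 33.3 and 37.5 CPM, a ratio of 1.24 (adjusted p = 4.44e-04, chi-square test). Acsl3 was at 5.90, 3.87 and 4.60 CPM, a ratio of 1.52 (adjusted p = 0.0230, chi-square test). Decr1 and Acsl3 were both highest in replicate 1 and lowest in replicate 2. No gene at 10 TPM or more was both called and past a ratio of 1.5, a ratio reached by 7.33% of all genes averaging at least 100 counts.

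The other 13 called genes had ratios under 1.2. The smallest adjusted p among them, 1.43e-15, belonged to Acsl5 at 256, 219.7 and 256 CPM, a ratio of 1.17, with replicate 2 alone low. On the synthesis side, Acly, Fasn, Elovl5 and Scd2 were called, 4 of 11, beside 44.9% of all genes tested. Elovl5 was at 282, 321 and 304 CPM and Fasn at 280.1, 299.8 and 283 CPM, and both were highest in replicate 2. Acly and Scd2 were highest in replicate 3 and lowest in replicate 2. The list thus had no common direction between libraries.

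Replicate 2 was the lowest library for 18 of the 39 genes, against 35.3% of all genes tested, and for 17 after TMM scaling, against 32.6%. Called and lowest in replicate 2 were 11 genes, or 28.2% of those tested, against 16.4% of all genes. The latter include more genes of few counts, where calls are rarer. Among genes averaging at least 100 counts, 10 of 34 were called and lowest in replicate 2, against 1980 of 9957. Of the 39, 4 genes were called and lowest in replicate 1 and 3 in replicate 3, against 13.4% and 15.1%. In the same libraries all 13 genes of a proliferation list were lowest in replicate 2, with sums of 878, 684 and 783 TPM. By CPM, 5 of 6 myeloid markers were also lowest there, all but Itgam at 3.08, 3.02 and 2.87 CPM. The myeloid sums were 43.2, 29.8 and 45.0 TPM, lowest in replicate 2, with 5 of 6 markers detected. Erythroid markers were highest there, with sums of 909, 1270.1 and 1146 TPM and 5 of 5 detected. The 4 T cell markers were lowest in replicate 2 as well by CPM, and 3 of the 4 after TMM scaling. All 5 regulatory T cell markers were lowest in replicate 3, where Fabp5, Acadl and Acaa1a were also lowest; Il2ra was at 799, 845 and 652 CPM. The part of these cells and of proliferation in the differences between libraries was not tested, and in such RNA fewer cells of a type and less RNA per cell cannot be told apart.

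The defining markers of the labelled cells were present. All 5 regulatory T cell markers and all 4 T cell markers were detected, among them Foxp3 at 90.8, 96.4 and 83.0 TPM. Cells known for high fatty acid synthesis or storage left almost no signal: of 6 adipocyte markers none was detected, with sums of 0.640 to 1.42 TPM and Cfd at 0, and all 3 hepatocyte markers were at 0. No platelet marker of 5 was detected, and of 4 endothelial markers only Pecam1, which leukocytes also express. B cell markers were present at a low level, 4 of 5 detected with sums of 47.9 to 52.8 TPM, and 1 of 2 CD8 T cell markers was detected. That marker, Cd8b1, was at 17.7, 21.7 and 22.5 TPM. Cd8a was at 0.790, 2.56 and 1.03 TPM, highest in replicate 2, with a ratio in CPM of 3.07. Depth was 20783676, 21206219 and 18496690 estimated counts, so that the 3 counts which a count of 0 allows equal 0.144, 0.141 and 0.162 CPM; such limits cover counting error only.

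Transcript estimates were examined for the 30 genes with a mean of 10 TPM or more, all of which have several annotated transcripts. The leading transcript held a median of 82.5% of a gene's transcript TPM, over 50% in 26 genes and over 90% in 10, and was annotated as protein coding in 28. The exceptions were Hadha and Pnpla2. For Hadha, Hadha-201, annotated as a processed transcript of 2552 bases, took 60.5, 57.2 and 57.1%, while the protein-coding Hadha-205 (4017 bases, 2292 of them coding) took 6.19, 4.92 and 6.17%. For Pnpla2, Pnpla2-201, annotated as a target of nonsense-mediated decay, took 57.2, 59.6 and 58.8%, and the coding Pnpla2-202 took 27.7, 35.2 and 31.9%. These shares were steady between libraries, and they say how the quantifier divided reads among overlapping models and do not measure protein.

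**Figure D5:**
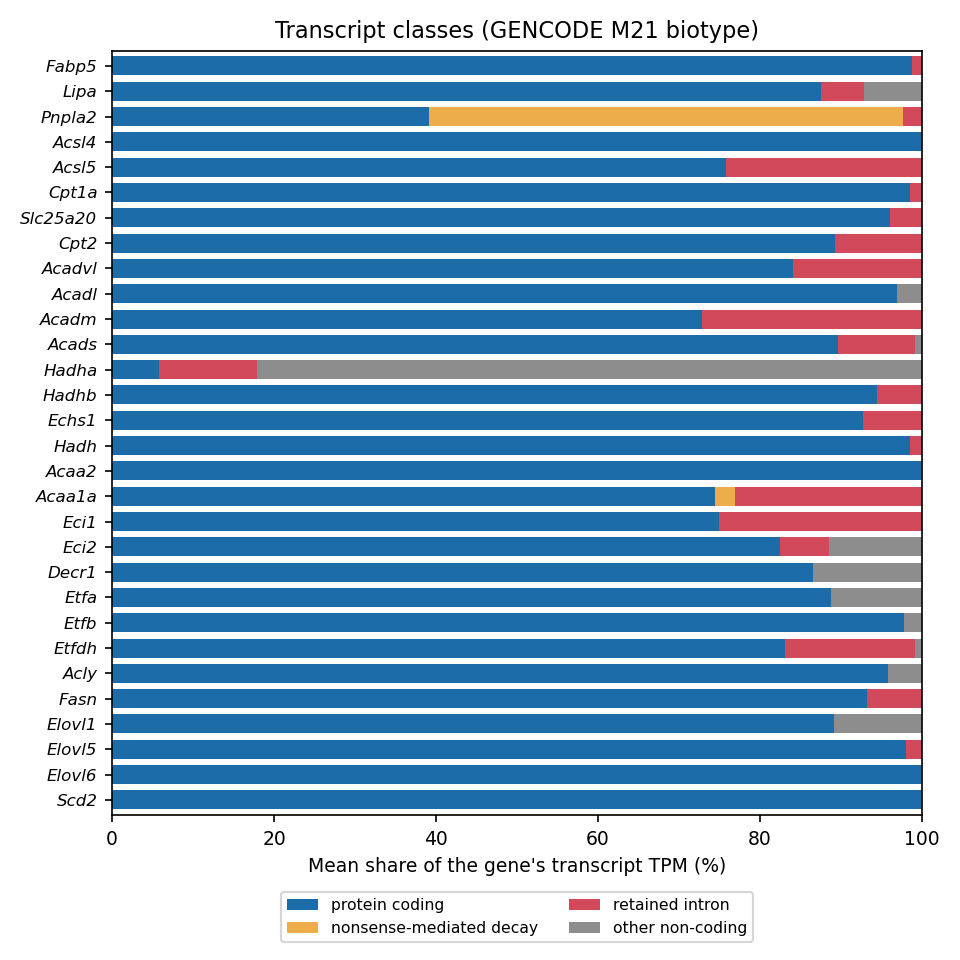
Mean share of transcript TPM by annotated transcript class for the 30 genes with a mean of 10 TPM or more, as stacked bars adding to 100%. Hadha and Pnpla2 stand apart, with 5.76% and 39.1% in protein-coding transcripts.

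Over 10% of the transcript TPM lay outside protein-coding transcripts in 15 of the 30 genes. Short models weigh heavily on this scale: Acsl5-206, a retained intron of 358 bases, took 24.2 ± 1.18% of the Acsl5 transcript TPM but 2.79% of its transcript counts. By transcript counts the median leading share was 89.4%. Acsl4 was divided among 3 coding transcripts with mean shares of 43.8, 37.9 and 16.5%, and Scd2 lay wholly in Scd2-201. Eci2 had the least stable assignment, since Eci2-203 took 18.3, 53.0 and 14.6% and Eci2-211 took 39.9, 0 and 33.6%, while the gene itself was at 59.9, 62.2 and 60 TPM.

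The promoters of Fasn and Elovl5 are shown because these were the called synthesis genes highest in replicate 2, a choice made after their values were seen. The sequence is the 250 bases before the RefSeq start on GRCm38.p6, on the gene's strand, with CCAAT on either strand and the E-box CACGTG in capitals.
Fasn, chr11:120824548-120824797, minus strand: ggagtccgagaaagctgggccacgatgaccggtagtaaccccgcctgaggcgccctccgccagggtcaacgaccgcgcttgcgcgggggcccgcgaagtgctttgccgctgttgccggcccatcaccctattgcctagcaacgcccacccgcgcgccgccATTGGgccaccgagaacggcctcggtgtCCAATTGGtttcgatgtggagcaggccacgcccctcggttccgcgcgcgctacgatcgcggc
Elovl5, chr9:77917115-77917364, plus strand: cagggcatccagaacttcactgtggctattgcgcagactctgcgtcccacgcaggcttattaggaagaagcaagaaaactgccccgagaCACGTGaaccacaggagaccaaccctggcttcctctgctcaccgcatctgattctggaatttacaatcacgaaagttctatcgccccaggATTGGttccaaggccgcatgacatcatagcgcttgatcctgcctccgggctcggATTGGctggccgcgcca
CCAAT was found in 16 of the 33 genes with a RefSeq promoter, 4 of 8 synthesis and 7 of 17 oxidation genes, and in 37.5% of all genes and 41.4% of detected protein-coding genes; in the Fasn window 2 of its matches overlap, on opposite strands. CACGTG was found in Elovl5 alone, against 6.86% of all genes and 10.1% of detected protein-coding genes. TATAAA was found in Lipa and Acacb, 2 of 33, against 14.3% of all genes and 7.41% of detected protein-coding genes. The letters TCACNCCAC, a sterol regulatory element form, were found in Acsl1 alone, against 1.22% of all genes and 1.23% of detected protein-coding genes, TCAAGGTCA in none, against 0.422% and 0.326%, and its shorter form AAGGTCA in Acadm, against 4.70% and 3.44%. A match here is a description of letters in this window.

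Other genes of the pathways were described from lists drawn up by role, of which 36 of 79 genes tested were called, beside the 44.9% of all genes. Among transcription factors and regulators, 16 of 21 genes were detected and 9 of 17 tested were called. Srebf2, which drives sterol synthesis genes, had a mean of 144 ± 4.95 TPM, and Srebf1, which drives fatty acid synthesis genes, 76.3 ± 1.75 TPM. Nr1h2, a liver X receptor, had 122 ± 7.17 TPM, and Prkag1, a subunit of the AMP-activated kinase, 105 ± 7.79 TPM. Esrra, a nuclear receptor that works with the coactivators above, had 6.06 ± 1.15 TPM, Ppard 2.13 ± 0.573 TPM, and Mlycd, which degrades malonyl-CoA, 1.68 ± 0.103 TPM. Ppara, the receptor of fasting liver, had 1, 2 and 2 estimated counts.

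Of the uptake and binding genes, 5 of 16 were detected and 3 of 5 tested were called, beside 44.9% of all genes tested. Dbi, the acyl-CoA binding protein, had 193 ± 13 TPM. Slc22a5, the plasma membrane carnitine carrier, was at 19.8, 29.8 and 21.8 TPM with replicate 2 the highest (ratio in CPM 1.32, adjusted p = 2.74e-09, chi-square test), a call lost once the typical spread between these libraries was added (adjusted p = 0.833, chi-square test). Slc27a1 and Slc27a4, fatty acid transport proteins, had 10.6 ± 0.893 and 1.98 ± 0.270 TPM, and Acbd3 8.73 ± 0.926 TPM.

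Of the other oxidation enzymes, 27 of 33 were detected and 10 of 29 tested were called, beside 44.9% of all genes tested. Ech1, an auxiliary isomerase, had 199 ± 25.5 TPM, and the thioesterases Acot7 and Acot9 had 129 ± 6.27 and 107 ± 4.45 TPM. The lowest detected were Amacr at 5.51 ± 0.451 and Acad12 at 2.70 ± 0.251 TPM. Of the other synthesis enzymes, 11 of 22 were detected and 9 of 15 tested were called, beside the same 44.9%. Tecr, the reductase of the elongation cycle, had 389 ± 9.76 TPM, Hacd3, a dehydratase of that cycle, 161 ± 10.2 TPM, and Hsd17b12, its ketoreductase, 52.8 ± 6.07 TPM. The lowest detected were Acsf3 at 6.94 ± 0.759 and Mcat at 3.91 ± 2.07 TPM, which serve mitochondrial synthesis. Each of the 4 steps of the elongation cycle, from the elongases Elovl1 and Elovl5 to Tecr, thus had a gene averaging over 50 TPM.

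Of 16 genes of lipid droplets and lipolysis beyond Pnpla2 and Lipa, 11 were detected. Of 13 tested, 5 were called, beside 44.9% of all genes tested. Dgat1, which makes triglyceride, had 47.9 ± 2.32 TPM, and the droplet coat genes Plin3 and Plin2 had 36.5 ± 2.69 and 31.1 ± 2.70 TPM. Dgat2, which also makes triglyceride, was at 15.5, 8.72 and 7.84 CPM, with replicate 1 the highest (ratio 1.98, adjusted p = 7.00e-14, chi-square test). It stayed called with the typical spread added (adjusted p = 0.00960, chi-square test), as did 1 other gene of these lists, Hacd4 of the other synthesis enzymes, with 30, 7 and 12 estimated counts; both were named after their values were seen. The lowest detected were Agpat2 at 6.23 ± 0.779 and Gpam at 1.57 ± 0.395 TPM. In a programme of 14 cholesterol synthesis genes, 12 were highest in replicate 2, against 33.0% of all genes tested, and 8 were both called and highest there, against 14.2%. Fasn and Elovl5 were highest in the same library, while Acly, Scd2 and Srebf1 were called and lowest in it. The Srebf1 difference was smaller in TPM, at 77.4, 74.3 and 77.2 TPM against 148, 114 and 137 CPM.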

How the data were processed

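Gene and transcript tables were made on mm10 with GENCODE M21, per the text lists deposited with the libraries; aligner, quantifier version and strand setting: not given in the sources used here. Deposited expected counts (estimated counts) need not be whole, and the authors' tables give TPM and FPKM beside them. A second deposited table holds whole-number counts for GENCODE M4, totalling 30.3, 29.3 and 31.1% of the estimated counts. All ratios given from it divide its counts by the effective lengths of the first table. Over the 41 genes, the share of a gene's estimated counts held there had a Spearman correlation of 0.52 with the coding percentage of its leading transcript. The ratios make no allowance for this, and its cause was not tested. In each deposited gene table, effective lengths were 49 bases under the gene length at the median.

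Levels are means of TPM with the SD over 3 libraries. Library totals cover annotated genes alone. Estimated counts were rounded and tested per gene by Pearson's chi-square test with 2 degrees of freedom, adjusted over all genes tested. In counts simulated with Poisson noise alone it called 70.0% of genes changed 1.2-fold and 0.0346% of unchanged genes. The changed genes averaged at least 100 counts. The simulation held no spread between libraries beyond counting noise, so these rates do not carry over to the real libraries. Scaling alternatives and the common dispersion came from edgeR 4.0.16 and DESeq2 1.42.0 in R 4.3.3. Shared windows were 50 bases long and compared over all GENCODE M21 transcripts on both strands; coding sequences were aligned with Biopython 1.88. Promoters came from RefSeq on GRCm38.p6, which held 33 of the 41 genes. The posterior SD of the count in the deposited tables was at most 1.28% (Acaca) for the 34 genes with a mean count of 100 or more.

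The genes and lists were chosen with earlier results of these data known. All 41 were named; of each pathway list the 3 highest and 2 lowest detected genes, and a few regulators, were named; library values were to be printed in full for called genes at 10 TPM or more with a ratio of 1.5 or more and for the paired isoenzymes. Some genes that this rule names are not reported here.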

Additional observations from a re-analysis of the deposited data

How the results depend on the processing

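The chi-square count of 18 called genes was 16 under TMM scaling (background 45.0%), DESeq2 size factors (44.7%) or no filter beyond a summed count of 1 (20.1%, members 39.0% of 41), and 17 with a summed count of 300 (56.9%) or with the likelihood ratio (45.0%). It fell to 0 with the common dispersion allowed (2.72%), to 6 of 36 tested in the second table (background 23.2%), which holds fewer counts, and to between 9 and 15 with 1 library left out (27.7 to 34.0%); the 9 without replicate 2 shared 7 with the 18. The 36 called genes of the other pathway lists became 2 with the common dispersion and 16 to 24 with 1 library left out, fewest without replicate 1. The gap between oxidation and synthesis was 2.03 with a pseudocount of 1 TPM, 1.64 by means of logs and 1.37 without elongases and desaturases. It was 2.07 to 2.14 with 1 library left out. With only genes at 1 TPM in every library it reversed to -0.35, but that filter selects on the values compared. The median leading transcript share was 89.4% by counts and 80.3 to 82.6% with 1 library left out. Hadhb to Hadha reversed to -3.18 in the second table; that cause was not tested. Counts of detected genes ran from 34 to 36. Genes under 100 counts, 7 of 41, had too few reads for small differences to be detected. No paired analysis was possible because there is 1 group.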
